A study of Homo sapiens with 20 samples.

Results

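The 9 genes described here encode ligands and receptors of the tumour necrosis factor (TNF) family that start or modulate death receptor signalling. They were chosen by symbol, each symbol being matched to 1 Ensembl identifier, and they are 9 of the 58233 genes in the deposited count files. The ligands are *TNF* (ENSG00000232810), *LTB* (ENSG00000227507), *TNFSF9* (ENSG00000125657) and *TNFSF10* (ENSG00000121858). The receptors are *TNFRSF9* (ENSG00000049249), *TNFRSF10A* (ENSG00000104689), *TNFRSF10B* (ENSG00000120889), *TNFRSF12A* (ENSG00000006327) and *FAS* (ENSG00000026103).

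RNA-seq was performed on 4 lung cancer cell lines that carried Cas9 and an sgRNA against *GFP*, which has no target in these cells, or against *ADAR*, the gene of the RNA-editing enzyme ADAR1. HCC366, NCI-H196 and NCI-H1650 cells, which the study names as ADAR1-dependent, were left untreated and harvested on day 5 after infection with the sgRNA vector. A549 cells, the comparison line, were given 10 ng/mL interferon-β (IFN-β) or vehicle for 24 h. Each of the 10 conditions had 2 libraries, 1 for each sgRNA (sg1 and sg2), so the 20 libraries were pools of transduced cells and not single clones, and p values measure the spread between sgRNAs and not between repeated experiments.

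TNF family ligands are trimeric proteins that gather their receptors at the cell surface. Receptors with a death domain, such as FAS and the 2 TRAIL receptors encoded by *TNFRSF10A* and *TNFRSF10B*, can recruit FADD and caspase 8 and so start apoptosis. Receptors without a death domain, such as those encoded by *TNFRSF9* and *TNFRSF12A*, bind TRAF adaptors and signal mainly through NF-κB, and the TNF receptor 1 can do either.

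The libraries held between 62679 reads on genes (NCI-H196 GFP sg2) and 19520189, with a median of 6411279. In NCI-H196 GFP sg2, 1 read corresponded to 14.7 CPM (counts scaled to library depth), so the NCI-H196 control level of a gene rests almost wholly on GFP sg1. In HCC366 ADAR sg2, 85.6% of alignments were not unique, against 22.5% to 59.1% in the other libraries. Transcript levels of *ADAR*, the targeted gene, fell by 1.29 (SE 0.11) on the log2 scale in NCI-H1650 cells, by 0.41 (SE 0.11) in NCI-H196 cells, and in A549 by 1.08 (SE 0.13) with vehicle and 0.60 (SE 0.13) with IFN-β. In HCC366 the change of −0.84 (SE 0.31) did not pass the test (adjusted p = 0.208), although GFP libraries held 804 and 1101 CPM and ADAR libraries 571 and 490 CPM. Keratins and other epithelial markers summed to 2827 to 8104 CPM in A549, HCC366 and NCI-H1650 libraries and to 73.3 to 95.1 CPM in NCI-H196. Of 8 leukocyte markers, 3 to 7 had no read in a given library, and *CD3E*, *CD2* and *MS4A1* had no read in any of the 8 untreated or vehicle-treated GFP libraries. In these libraries *ITGAM* and *CD14* had reads in each line, with means of 7.25 and 5.49 CPM in HCC366. *ITGAM* averaged 3.64 CPM in A549.

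The 250 bases before the transcription start of the canonical transcript in GRCh37 were searched for 6 short motifs on both strands. Results are described for 6 of the members. The windows of *TNFSF10*, *TNFRSF9* and *LTB* are shown because these genes had the largest changes with IFN-β or *ADAR* knockout (KO), with motif matches in capitals. The *TNFSF10* window (chr3:172241221-172241470, minus strand) holds the paired GAAA motif of interferon regulatory factors (GAAANNGAAA, here on the opposite strand) from 187 to 178 bases before the start. The *TNFRSF9* window (chr1:8000900-8001149, minus strand) holds overlapping matches of the NF-κB (κB) consensus on both strands, from 74 to 64 bases before the start, and an AP-1 site (TGANTCA) from 44 to 38 bases before it. The *LTB* window (chr6:31550202-31550451, minus strand) holds a κB match from 87 to 78 bases before the start.
TNFSF10: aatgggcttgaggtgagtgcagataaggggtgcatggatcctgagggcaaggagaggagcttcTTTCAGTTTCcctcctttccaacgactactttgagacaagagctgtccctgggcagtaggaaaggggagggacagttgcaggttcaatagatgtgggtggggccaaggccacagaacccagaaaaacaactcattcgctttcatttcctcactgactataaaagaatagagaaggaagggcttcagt
TNFRSF9: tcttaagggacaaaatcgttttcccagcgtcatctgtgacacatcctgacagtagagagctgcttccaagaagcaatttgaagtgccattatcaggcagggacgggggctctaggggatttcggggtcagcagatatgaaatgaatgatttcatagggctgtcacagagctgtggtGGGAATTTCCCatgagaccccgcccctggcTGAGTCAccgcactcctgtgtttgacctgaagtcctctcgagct
LTB: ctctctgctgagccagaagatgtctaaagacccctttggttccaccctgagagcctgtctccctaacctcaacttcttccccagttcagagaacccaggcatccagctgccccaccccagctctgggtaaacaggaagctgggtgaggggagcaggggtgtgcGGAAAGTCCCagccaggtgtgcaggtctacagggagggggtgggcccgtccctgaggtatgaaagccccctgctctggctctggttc
The interferon pair occurred in 2.84% of 19894 windows of coding genes, the κB consensus in 5.86% and the AP-1 site in 4.69%. *TNFSF9* (chr19:6530787-6531036) also held the interferon pair, from 194 to 185 bases before its start. The windows of *TNF* and *TNFRSF12A* held no exact match to any of the 6 motifs, which also included the p53 decamer, the cyclic AMP response element (TGACGTCA) and the amino acid response element (TGATGNAA). A match describes letters in a window and is not a measured binding site. Sites that depart from the motif letters, or lie outside the window, were not searched for, so a window without a match may still hold such a site.

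The genes lie on 7 chromosomes. *TNF* (chromosome 6, 31543342 to 31546113, plus strand) and *LTB* (31548302 to 31550299, minus strand) are neighbours. *FAS* (chromosome 10, 90750414 to 90775542) overlaps *ACTA2* on the opposite strand by 683 bases, and *TNFRSF12A* (chromosome 16, 3068446 to 3072384) overlaps *CLDN6* by 1627 bases. These are overlaps of whole genes, and exons were not compared. The strand setting of the counting is not given in the sources used here, so reads of *FAS* and *ACTA2* may not be fully separated. *ACTA2* had 1229 reads in all 20 libraries, with at most 564 in a library, against 2009 of *FAS*. *CLDN6* had 76 reads in all 20 libraries against 30321 of *TNFRSF12A*, and *RHOBTB2*, which overlaps *TNFRSF10B* by 377 bases on the opposite strand, had 4131 against 26996.

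Basal levels were compared in cells with GFP sgRNAs, as reads scaled to depth and transcript length (RPKM) so that genes could be set beside each other. *TNFRSF12A*, which encodes Fn14, the receptor of TWEAK, had the highest level of the 9 genes in all 4 lines, A549 having 252 ± 15.9 RPKM, NCI-H1650 204 ± 7.66, NCI-H196 109 ± 17.4 and HCC366 70.9 ± 1.33 (SD, n = 2 sgRNAs). *TNFRSF10B*, the TRAIL receptor DR5, had the next highest mean in all 4 lines, at 18.9 ± 1.07 to 44.8 ± 13.2 RPKM, although in HCC366 it overlapped *TNF*. *TNFRSF10A*, the TRAIL receptor DR4, stood at 5.44 ± 0.69 to 13.6 ± 1.47 RPKM.

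**Figure D1:**
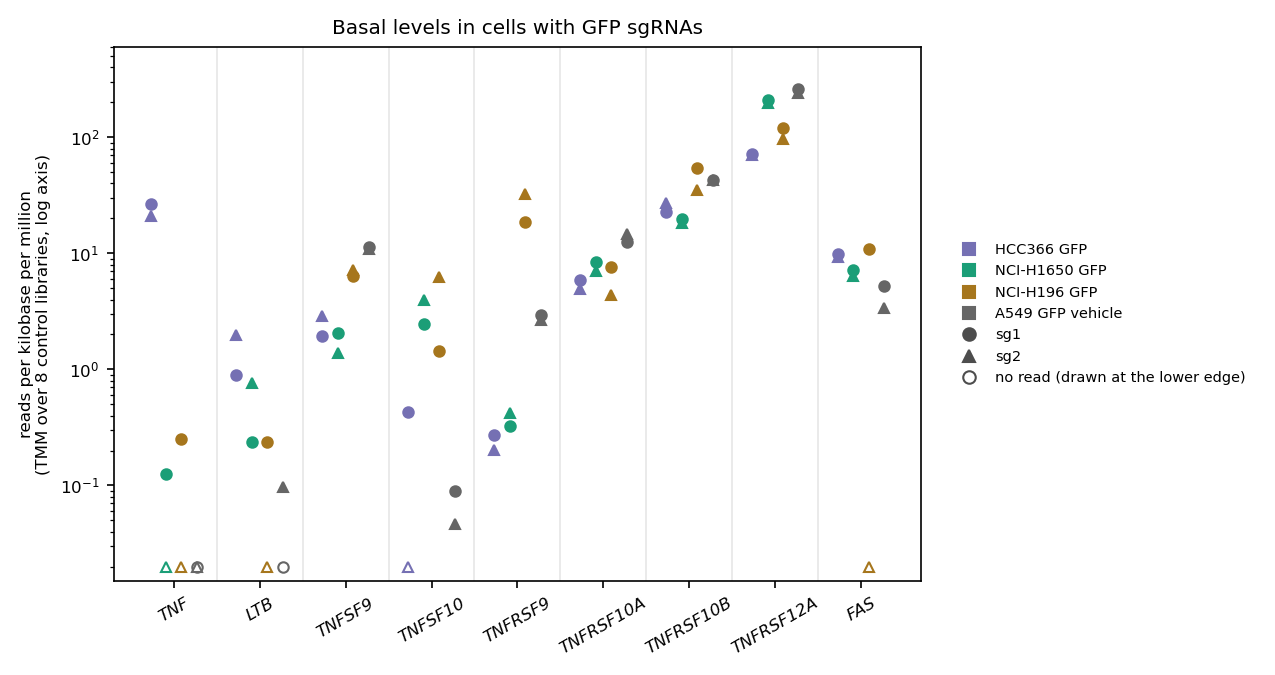
Basal levels in GFP control libraries. The vertical axis gives RPKM on a log scale, circles and triangles are sg1 and sg2 of each line, and open symbols at the lower edge are libraries with no read. *TNFRSF12A* was the highest gene in each line, *TNF* was high in HCC366 (20.8 and 26.6 RPKM) and *TNFRSF9* in NCI-H196 (18.7 and 32.2 RPKM).

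The ligands were low in most lines. *TNF* was 26.6 and 20.8 RPKM in the HCC366 controls, where 56 and 118 reads were counted, and A549 vehicle controls had no read. The 174 reads in HCC366 controls against 0 in A549 controls gave a ratio, scaled for library size, whose 95% counting interval began at 175.9. NCI-H1650 controls had 1 and 0 reads and NCI-H196 controls 4 and 0 reads. *TNFSF10*, which encodes the ligand TRAIL, was 2.47 and 3.96 RPKM in NCI-H1650 and 1.45 RPKM in NCI-H196 GFP sg1, against at most 1 read per control library in HCC366 and A549. *TNFSF9*, which encodes the 4-1BB ligand, was highest in A549, at 11.0 ± 0.31 RPKM. *LTB*, the membrane anchor of lymphotoxin heterotrimers, reached at most 1.99 RPKM in a control library.

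All 8 members tested differed among the 4 lines, but so did 92.1% of all genes tested, so this count does not set them apart (*LTB* had too few reads to test). By DESeq2 the calls of *TNFRSF10A* (adjusted p = 0.0714) and *FAS* (adjusted p = 0.292) were lost. Between pairs of lines the share of all genes that passed was 56.7% for HCC366 and NCI-H1650, 57.3% for HCC366 and NCI-H196, 64.9% for HCC366 and A549, 61.7% for NCI-H1650 and NCI-H196, 68.3% for NCI-H1650 and A549 and 70.5% for NCI-H196 and A549. *TNFRSF9*, which encodes 4-1BB, a co-stimulatory receptor best known on T cells, was 18.7 and 32.2 RPKM in NCI-H196, 2.96 and 2.66 in A549, 0.32 and 0.42 in NCI-H1650 and 0.27 and 0.20 in HCC366. Its level in NCI-H196 exceeded that in A549 by 7.04-fold (adjusted p = 2.73e-38, edgeR quasi-likelihood test). NCI-H1650 and HCC366 were not separated for *TNFRSF9* (adjusted p = 0.359).

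For the death domain receptors the lines lay closer together. *TNFRSF10B* was not separated between NCI-H196 and A549 (1.22-fold, adjusted p = 0.0558), was lower in HCC366 than in A549 (log2 difference −0.75, SE 0.14) and was lowest in NCI-H1650, 1.36-fold under HCC366 (adjusted p = 0.00663). *TNFRSF10A* was highest in A549, 1.77-fold over NCI-H1650 (adjusted p = 1.4e-05), while NCI-H1650 and NCI-H196 were not separated (adjusted p = 0.927). *FAS* was not separated between NCI-H196 and HCC366 (adjusted p = 0.572) or between HCC366 and NCI-H1650 (adjusted p = 0.0723), and A549 had the lowest level, 1.63-fold under NCI-H1650 (adjusted p = 0.00297). For *TNFRSF12A* each neighbouring pair of lines differed, from A549 over NCI-H1650 (1.23-fold, adjusted p = 0.0215) and NCI-H196 to HCC366. For *TNFSF9* the order was A549, NCI-H196 and then HCC366 and NCI-H1650, which were not separated (adjusted p = 0.295).

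The effect of *ADAR* KO was then examined in each ADAR1-dependent line, on CPM scaled within the line. In HCC366 cells, the ligand gene *LTB* and the receptor genes *TNFRSF9* and *TNFRSF10B* rose. *LTB* was 0.77 and 1.72 CPM in the GFP libraries (1 and 6 reads) and 17.5 and 34.9 CPM in the ADAR libraries (20 and 54 reads), a log2 fold change of 4.16 (SE 0.61, adjusted p = 0.0272). *TNFRSF9* was 1.55 and 1.15 CPM with GFP sgRNAs and 10.5 and 17.5 CPM with ADAR sgRNAs (log2 fold change 3.42, SE 0.59, adjusted p = 0.0361). *TNFRSF10B* was 88.3 and 106 CPM against 289 and 478 CPM, or 3.94-fold higher (log2 fold change 1.98, SE 0.36, adjusted p = 0.0420). For all 3 genes the lowest ADAR library lay above the highest GFP library. The share of all genes that separate in this way was not counted, here or in the other settings. Lack of overlap therefore adds nothing to the test of the same values.

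The ligand *TNF* itself was 43.4 and 33.8 CPM in GFP libraries and 120 and 118 CPM in ADAR libraries of HCC366, which did not overlap, but the difference of 1.63 (log2, SE 0.35) missed the threshold (adjusted p = 0.0657). *TNFRSF12A* was 68.2 and 66.2 CPM against 109 and 280 CPM, with the higher value in ADAR sg2 (log2 difference 1.54, SE 0.45, adjusted p = 0.148). *TNFRSF10A* stood at 15.5 and 12.9 CPM against 28.9 and 30.4 CPM (log2 difference 1.08, adjusted p = 0.202). *FAS* was the only member tested with a negative difference in HCC366, at 24.8 and 22.9 CPM against 18.4 and 5.82 CPM (−1.02, adjusted p = 0.335).

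In all, 3 of the 7 members tested in HCC366 rose and none fell, where 1.25% of all genes tested passed the threshold, 1.2% rising and 0.0449% falling. The median log2 fold change of these 7 was 1.63, against −0.0069 over all genes. *TNFSF9* (4 and 16 reads against 7 and 18) and *TNFSF10* (at most 2 reads per library) had too few reads to test. The calls depend on the libraries, since 0 members passed without GFP sg2, 1 without GFP sg1, 6 without ADAR sg2 and 8 without ADAR sg1 (*FAS*, then lower, among these). With offsets for GC content and transcript length, which accounted for 51.6% of the variance of ADAR sg2 around its line mean, 5 passed, *TNF* (1.34, adjusted p = 0.00482) and *TNFRSF12A* (1.01, adjusted p = 0.0186) among them.

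Leukocyte markers moved in the same direction as these genes. Their summed level was 10.1 and 14.6 CPM in HCC366 GFP libraries and 40.2 and 55.6 CPM in ADAR libraries, and 4 to 6 of the 8 had no read. The sum was 4.97 and 5.78 CPM with GFP sgRNAs and 8.72 and 11.5 CPM with ADAR sgRNAs in A549 with IFN-β, and the groups overlapped in NCI-H196 (6.69 and 14.7 against 20.3 and 11.9 CPM) and NCI-H1650 (2.21 and 5.02 against 5.57 and 4.91 CPM). Most markers had too few reads to test, and with *ADAR* KO 1 rose in HCC366 (1 tested, log2 fold change 2.67), NCI-H1650 (1 tested, 1.77), A549 with IFN-β (1 tested, 0.98) and NCI-H196 (2 tested, median 2.53). The part of these markers in the members' values was not tested.

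**Figure D2:**
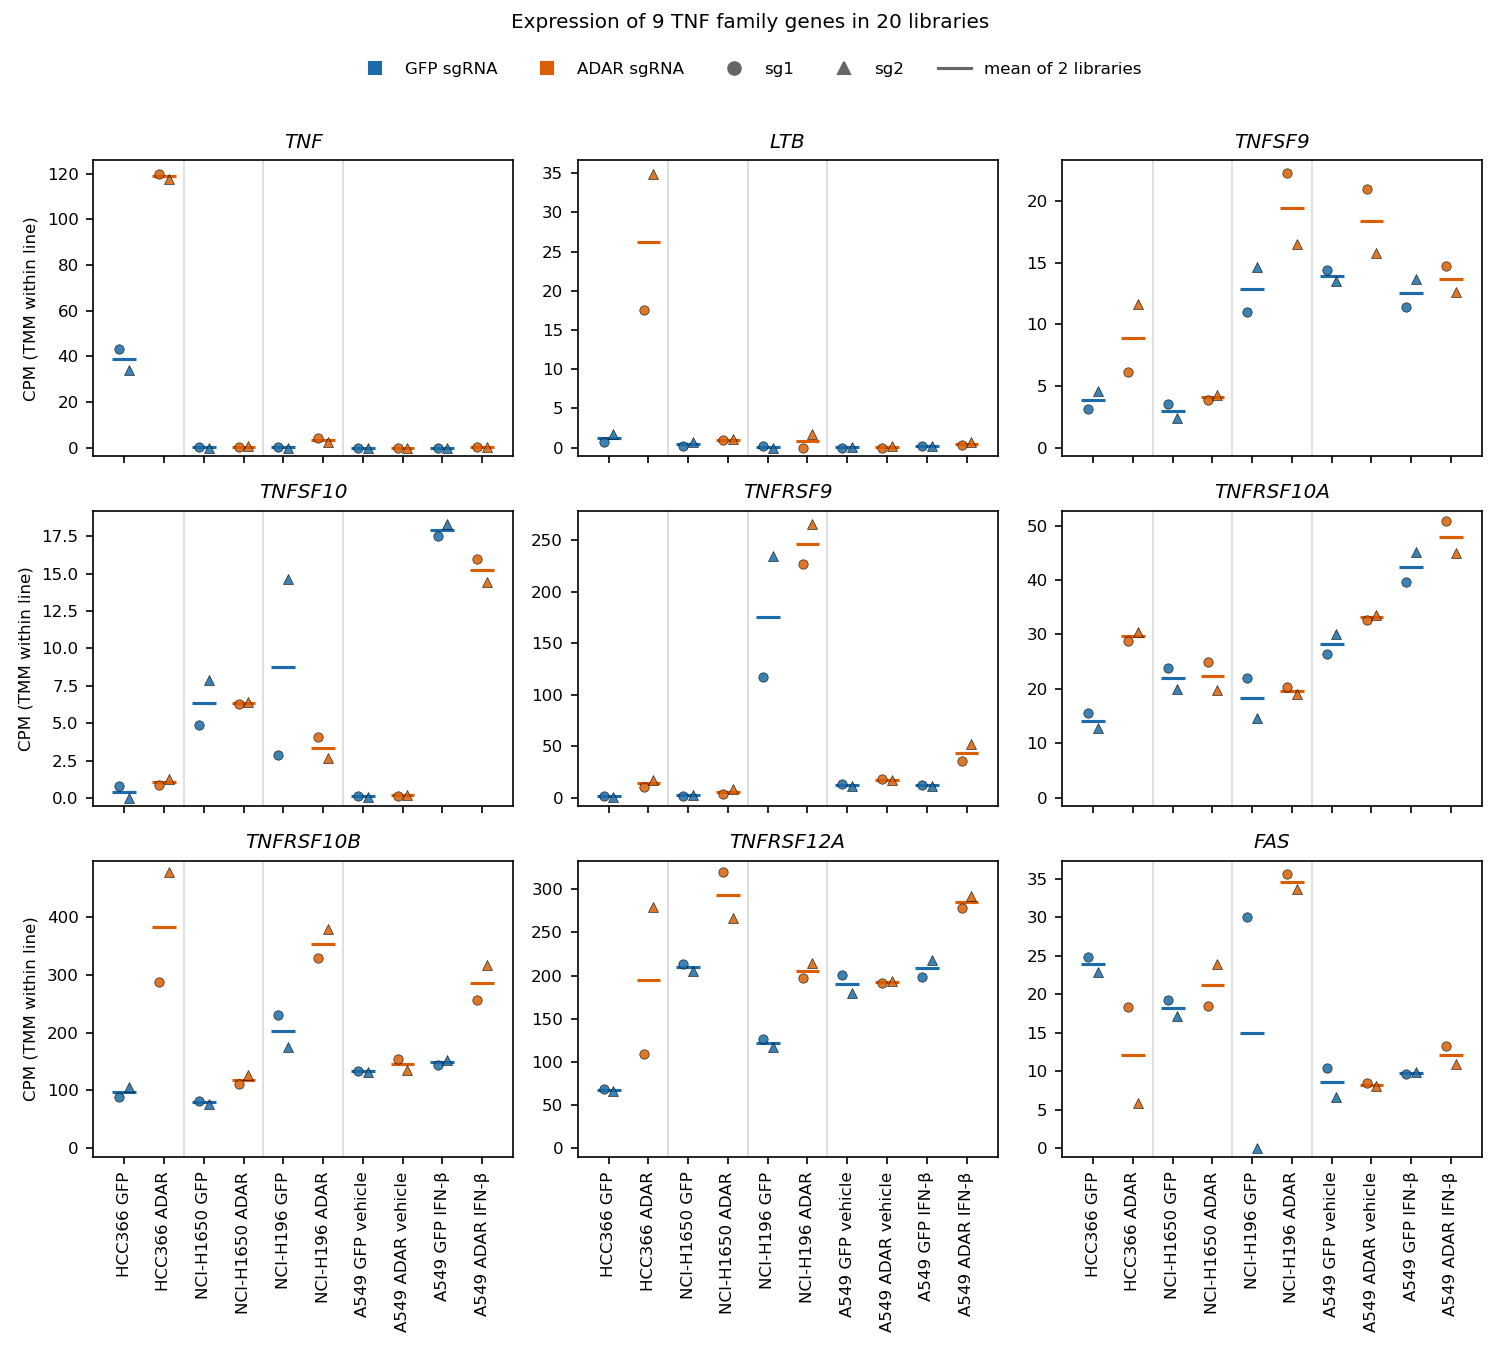
Levels of the 9 genes in every library. The vertical axes give CPM scaled by the trimmed mean of M values (TMM) within each line, blue marks GFP and orange ADAR sgRNAs, circles and triangles are sg1 and sg2, and bars are means of 2 libraries. The points of *TNFRSF10B* with ADAR sgRNAs lay above those with GFP sgRNAs in all 5 settings, by the smallest margin in A549 with vehicle (154 and 136 against 134 and 132 CPM), and *TNFSF10* was high in A549 after IFN-β (14.5 to 18.3 CPM).

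In NCI-H1650 cells 3 receptor genes rose and no ligand gene did. *TNFRSF10B* was 82.3 and 76.9 CPM in GFP libraries and 111 and 126 CPM in ADAR libraries, 1.49-fold higher (log2 fold change 0.57, SE 0.11, adjusted p = 0.000378). *TNFRSF12A* was 214 and 205 CPM against 320 and 266 CPM, 1.40-fold higher (log2 fold change 0.49, SE 0.10, adjusted p = 0.00102). *TNFRSF9* was 1.98 and 2.63 CPM against 3.53 and 8.12 CPM, on 9 to 38 reads (log2 fold change 1.30, SE 0.41, adjusted p = 0.0313). The groups did not overlap for any of the 3, which were picked by the test on the same values.

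The other members tested in NCI-H1650 were near their control level. *FAS* was 19.2 and 17.2 CPM in GFP and 18.4 and 23.9 CPM in ADAR libraries, and *TNFRSF10A* 23.8 and 20.1 CPM against 24.9 and 19.9 CPM, with overlapping groups for both. *TNFSF10* was 4.85 and 7.88 CPM against 6.31 and 6.41 CPM (log2 difference 0.0088, SE 0.30). Thus 3 of 7 members tested rose, with 8.6% of all genes passing, 6.18% rising and 2.42% falling, and the members' median of 0.45 stood beside 0.0066 over all genes. *TNF* (at most 3 reads) and *LTB* (at most 5 reads) could not be tested. Without GFP sg2 none of the 3 passed (adjusted p = 0.0579 for *TNFRSF10B*, 0.0787 for *TNFRSF12A* and 0.0973 for *TNFRSF9*), and *TNFRSF12A* was also lost without ADAR sg1 (adjusted p = 0.0664) and *TNFRSF9* without GFP sg1 or ADAR sg2 and by DESeq2 (1.32, adjusted p = 0.380).

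In NCI-H196 cells *TNF*, *TNFSF9*, *TNFRSF9*, *TNFRSF10B* and *TNFRSF12A* rose. *TNFRSF10B* was 230 and 176 CPM with GFP sgRNAs (2062 and 12 reads) and 329 and 379 CPM with ADAR sgRNAs, 1.59-fold higher (log2 fold change 0.67, SE 0.11, adjusted p = 1.74e-08). *TNFRSF12A* was 126 and 117 CPM against 197 and 214 CPM, 1.67-fold higher (log2 fold change 0.74, SE 0.10, adjusted p = 1.60e-10). *TNFRSF9* was 117 and 235 CPM, the latter from 16 reads, against 226 and 265 CPM (log2 fold change 1.09, SE 0.11, adjusted p = 1.01e-21). For *TNFRSF9* the groups overlapped, and for *TNFRSF10B* and *TNFRSF12A* they did not.

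The ligand changes in NCI-H196 rest on few reads. *TNF* had 4 and 0 reads in GFP and 4 and 18 reads in ADAR libraries, a ratio of 5.55 with a 95% counting interval from 1.88 to 22.1. Its fitted log2 fold change was 2.41 (SE 0.73, adjusted p = 0.00948). *TNFSF9* was 11.0 and 14.7 CPM (99 and 1 reads) against 22.3 and 16.6 CPM, with a log2 fold change of 0.65 (SE 0.23, adjusted p = 0.0315). *FAS* was 30 CPM (269 reads) in GFP sg1 and had no read in the shallow GFP sg2, against 35.5 and 33.6 CPM in ADAR libraries, and *TNFRSF10A* was 22.0 and 14.7 CPM against 20.3 and 19.1 CPM.

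Here 5 of 8 members tested rose, where 17.8% of all genes passed, 10.3% rising and 7.5% falling, and the members' median was 0.66 against −0.0039 over all genes. *LTB*, with 2 and 0 reads against 0 and 14, could not be tested. All 5 passed without GFP sg2, but then a single library stands for the control, and its spread is taken from the ADAR libraries. None of the 5 passed in the fit of all 20 libraries, none of the other 4 passed without GFP sg1 or ADAR sg2, where *TNF* had too few reads to test, and *TNF* and *TNFRSF9* alone of the 5 passed without ADAR sg1. DESeq2 gave none of the 3 receptors an adjusted p under 0.05 and gave *TNF* and *TNFSF9* no adjusted p.

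In A549 cells with vehicle no member passed the test. With GFP and ADAR sgRNAs, *TNFRSF10B* was 134 and 132 against 154 and 136 CPM, *TNFRSF12A* 201 and 180 against 192 and 194 CPM, and *TNFRSF9* 13.6 and 11.95 against 18.05 and 17.4 CPM. *TNFRSF9* was the 1 member with an unadjusted p under 0.05 (log2 difference 0.48, SE 0.19, adjusted p = 0.998). Of 7 members tested 0 passed by edgeR and 0 by DESeq2, where 0.123% of all genes passed by edgeR, 0.0324% rising and 0.0906% falling.

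The difference between the mean effect of *ADAR* KO in the 3 ADAR1-dependent lines and the effect in A549 with vehicle was tested directly in a fit of all 20 libraries. It passed for *TNFRSF9* (1.42, SE 0.37, adjusted p = 0.0493) and *TNFRSF10B* (0.95, SE 0.23, adjusted p = 0.0389), with 0.953% of all genes passing, 0.814% positive and 0.138% negative. *TNFRSF12A* missed the threshold (0.88, SE 0.26, adjusted p = 0.0925), and *FAS* (−0.20, SE 0.34) and *TNFRSF10A* (0.093, SE 0.22) lay near 0. None passed without any 1 of the 4 A549 vehicle libraries, either GFP library of HCC366 or NCI-H1650, NCI-H1650 ADAR sg2, NCI-H196 GFP sg1 or NCI-H196 ADAR sg2, or with no filter on low counts, and *TNFRSF10B* was also lost without NCI-H1650 ADAR sg1.

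**Figure D3:**
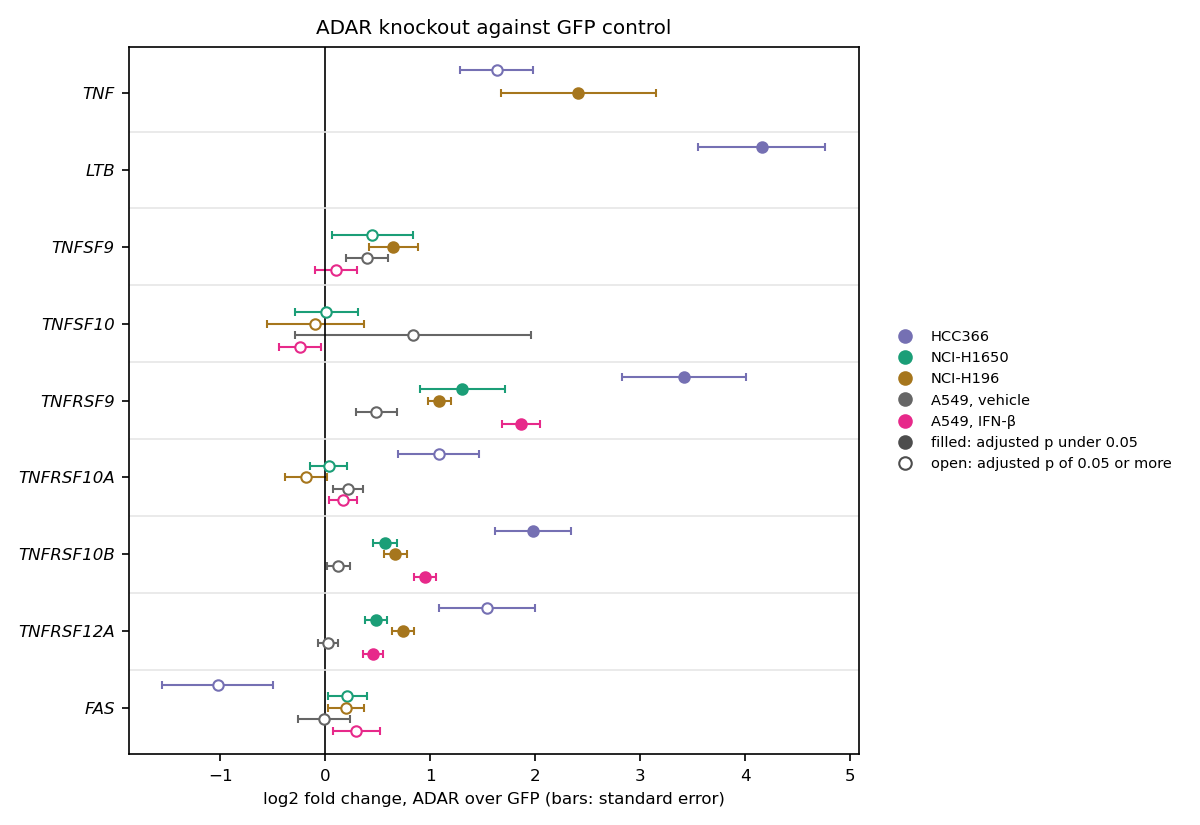
Effect of *ADAR* KO on each gene tested. The horizontal axis gives the log2 fold change of ADAR over GFP libraries with its standard error, colours are the 5 settings, and filled symbols passed the threshold. *TNFRSF10B* was filled in HCC366 (1.98), NCI-H1650 (0.57), NCI-H196 (0.67) and IFN-β-treated A549 (0.95) and open in A549 with vehicle (0.12).

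IFN-β had its largest effect among the members on the ligand gene *TNFSF10*. In A549 cells with GFP sgRNAs, *TNFSF10* had 1 read in each vehicle library (0.13 and 0.066 CPM) and 187 and 295 reads after IFN-β (17.5 and 18.3 CPM), a ratio of 204 with a 95% counting interval from 56.1 to 1688 (adjusted p = 1.02e-14). With ADAR sgRNAs it rose from 1 and 2 reads to 152 and 278 reads (15.98 and 14.5 CPM), a ratio of 90.01 with an interval from 30.6 to 438. The IFN-β-treated libraries of the 2 targets lay close together, and the interaction was not significant (log2 difference −1.08, SE 1.16, adjusted p = 0.682). The start region of *TNFSF10* is the first of the windows printed above, and the part of its motif in this rise was not tested. *TNFSF9*, whose window holds the same motif, did not rise with IFN-β (log2 difference −0.14 with GFP and −0.43 with ADAR sgRNAs, neither passing).

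The receptor *TNFRSF10A*, which binds TRAIL, rose modestly with IFN-β in both backgrounds. With GFP sgRNAs it was 26.4 and 30.1 CPM with vehicle and 39.6 and 45.1 CPM after IFN-β, 1.49-fold higher (adjusted p = 0.00620). With ADAR sgRNAs it was 32.7 and 33.6 against 50.9 and 44.9 CPM, 1.44-fold higher (adjusted p = 0.00492). The first call was lost without GFP vehicle sg1 (adjusted p = 0.168) or GFP IFN-β sg2 (0.0643), and the second without ADAR vehicle sg1 (0.0518) or ADAR IFN-β sg1 (0.0631).

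*TNFRSF10B*, the other TRAIL receptor with a death domain, differed in its response between the backgrounds. After IFN-β it was 144 and 153 CPM with GFP sgRNAs, against 134 and 132 CPM with vehicle (log2 difference 0.16, SE 0.11, adjusted p = 0.542). With ADAR sgRNAs it rose from 154 and 136 to 256 and 317 CPM, 1.98-fold (adjusted p = 1.85e-08). *TNFRSF9* was 12.8 and 11.7 CPM after IFN-β with GFP sgRNAs, and with ADAR sgRNAs it rose from 18.05 and 17.4 to 35.5 and 52.2 CPM (log2 fold change 1.32, SE 0.18, adjusted p = 9.46e-07). In both genes the lowest library with ADAR KO and IFN-β lay above every other A549 library, and the share of all genes with this order was not counted.

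*TNFRSF12A* was 198 and 218 CPM after IFN-β with GFP sgRNAs and 278 and 293 CPM with ADAR sgRNAs, where it rose 1.48-fold over vehicle (adjusted p = 6.16e-05). *FAS* was 9.57 and 9.94 CPM after IFN-β with GFP sgRNAs and 13.2 and 10.9 CPM with ADAR sgRNAs, and its change of 0.54 (log2, SE 0.24) in the ADAR background missed the threshold (adjusted p = 0.0948). *TNFSF9* was lower after IFN-β in the ADAR background, at 14.7 and 12.6 against 21.0 and 15.8 CPM, without passing the test (−0.43, SE 0.20, adjusted p = 0.113). *TNF* had no read in A549 except 2 and 3 reads in the libraries with ADAR KO and IFN-β, and *LTB* had 3 and 14 reads there against 2 and 3 with GFP sgRNAs and IFN-β, a ratio of 3.17 (counting interval 1.12 to 11.0).

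With GFP sgRNAs 2 of 7 members tested rose after IFN-β (5.7% of all genes passed, 4.39% rising and 1.31% falling), and with ADAR sgRNAs 5 of 7 rose (24.5% passed, 15.5% rising and 9.04% falling). No member fell in either background. The members' median log2 fold change was 0.16 with GFP sgRNAs and 0.56 with ADAR sgRNAs.

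**Figure D4:**
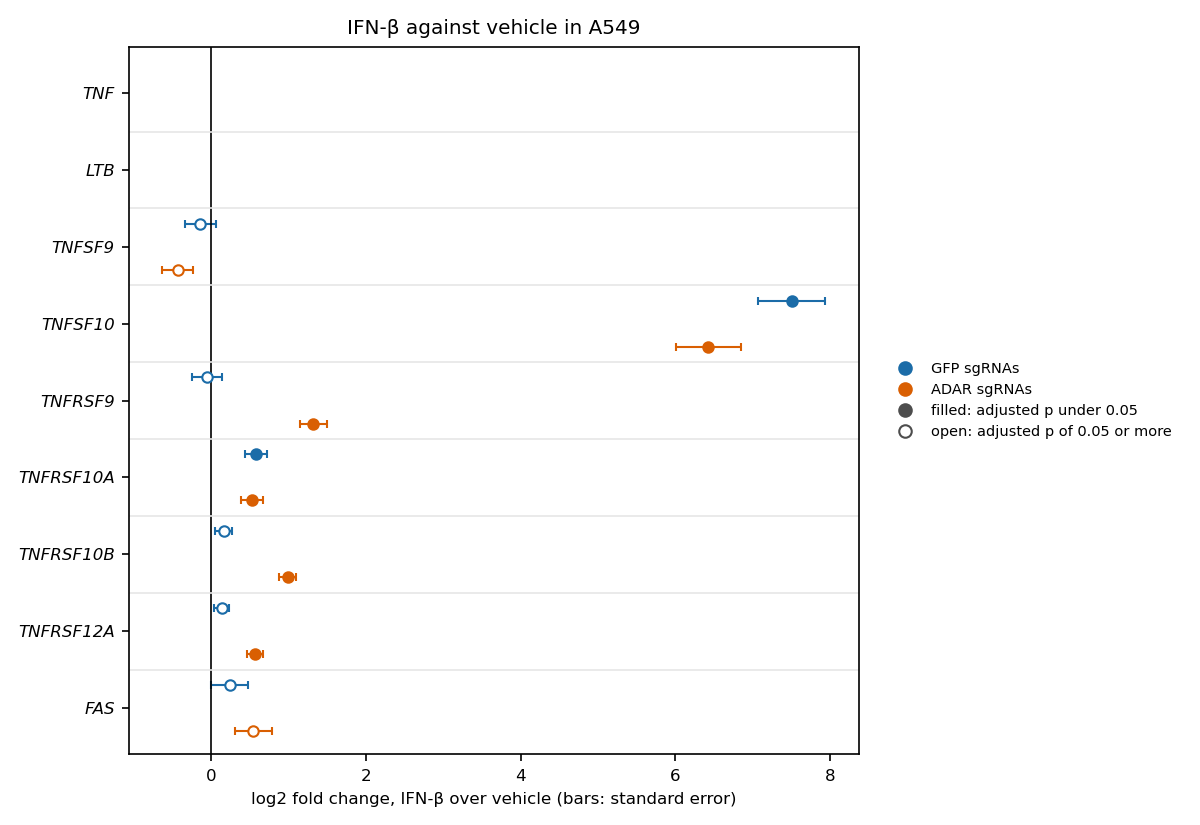
Effect of IFN-β on each gene in A549 cells with GFP or ADAR sgRNAs. The horizontal axis gives the log2 fold change of IFN-β over vehicle with its standard error, and filled symbols passed the threshold. *TNFSF10* lay at 7.50 and 6.43, and *TNFRSF9* and *TNFRSF10B* were filled with ADAR sgRNAs (1.32 and 0.99) and open with GFP sgRNAs (−0.056 and 0.16). No symbol is drawn for *TNF* and *LTB*, which had too few reads.

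The effect of *ADAR* KO within IFN-β-treated A549 cells uses the same ADAR IFN-β libraries as the comparison above. *TNFRSF9* was 3.63-fold higher with ADAR sgRNAs (log2 fold change 1.86, SE 0.18, adjusted p = 4.15e-09), *TNFRSF10B* 1.93-fold (0.95, SE 0.11, adjusted p = 8.67e-08) and *TNFRSF12A* 1.37-fold (0.45, SE 0.098, adjusted p = 0.00140). These are 3 of 7 members tested, with 17% of all genes passing, 10.8% rising and 6.19% falling, and all 3 passed with any 1 library left out. In the fit of all 20 libraries *TNFRSF12A* did not pass (0.41, adjusted p = 0.297). *TNFSF10* (−0.24, SE 0.20), *TNFSF9* (0.10, SE 0.20), *TNFRSF10A* (0.17, SE 0.13) and *FAS* (0.30, SE 0.22) did not pass.

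Whether *ADAR* KO acted differently with IFN-β than with vehicle was tested as an interaction. It passed for *TNFRSF9* (1.38, SE 0.26, adjusted p = 0.00109) and *TNFRSF10B* (0.83, SE 0.15, adjusted p = 0.000714), 2 of 7 members, where 5.05% of all genes passed, 4.07% positive and 0.977% negative. *TNFRSF12A* missed the threshold (0.43, SE 0.14, adjusted p = 0.0723), and passed by DESeq2 (adjusted p = 0.0433) and without GFP IFN-β sg2 (0.0233). The *TNFRSF9* interaction lay between 1.06 and 1.62 and that of *TNFRSF10B* between 0.66 and 0.97 with each library left out, past the threshold each time, but in the fit of all 20 libraries *TNFRSF10B* did not pass (0.79, adjusted p = 0.252).

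Across the 5 settings of *ADAR* KO, *TNFRSF9* and *TNFRSF10B* passed in the same 4, *TNFRSF12A* in 3 of these, and *TNFRSF10A* and *FAS* in none. No member passed in the negative direction. The A549 settings share no libraries with the other lines.

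Among the 14 other ligand genes of the superfamily, most had too few reads to test. *FASLG*, which encodes the ligand of FAS, had no read in any condition but NCI-H196 ADAR (0.063 ± 0.089 CPM). *TNFSF12*, which encodes TWEAK, the ligand of the *TNFRSF12A* product, stayed under 3 CPM on average in every condition and passed in no comparison. With *ADAR* KO 2 of 5 tested rose in NCI-H196, *TNFSF18* (1.08, SE 0.29) and *CD70* (0.55, SE 0.18), where 10.3% of all genes rose. None passed in the other lines, where at most 1 tested gene had an unadjusted p under 0.05. With IFN-β *TNFSF13B*, which encodes the B cell factor BAFF, rose in A549 from 0.033 ± 0.047 to 2.84 ± 0.23 CPM with GFP sgRNAs (adjusted p = 1.36e-05).

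Of 24 other receptor genes, those that bind the same ligands are the nearest partners. *TNFRSF10D*, a TRAIL receptor with a truncated death domain that acts as a decoy, fell after IFN-β, from 37.3 ± 5.17 to 13.98 ± 2.64 CPM with GFP sgRNAs (log2 fold change −1.42, SE 0.17) and from 40.9 ± 0.77 to 18.5 ± 4.32 CPM with ADAR sgRNAs (−1.12, SE 0.17). *ADAR* KO gave no call for *TNFRSF10D* in any setting (in HCC366 14.9 ± 4.09 against 43.7 ± 4.92 CPM, adjusted p = 0.0968). *TNFRSF1A*, the main TNF receptor, stood at 50.1 to 277 CPM on average and *LTBR*, the lymphotoxin β receptor, at 16.2 to 125 CPM, and neither passed in any comparison of *ADAR* KO or IFN-β. *TNFRSF1B*, the second TNF receptor, rose with IFN-β from 0.13 to 2.57 CPM with GFP sgRNAs (log2 fold change 4.19, SE 0.71). With *ADAR* KO 1 of 12 tested rose in NCI-H1650 (*NGFR*, 1.29, SE 0.30), where 6.18% of all genes rose, and in NCI-H196 2 of 11 rose and *TNFRSF19* fell (−1.72, SE 0.34), where 10.3% of all genes rose and 7.5% fell.

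The signalling list holds adaptors, caspases and inhibitors that act behind the receptors. Of its 20 genes, 2 of 18 tested rose in HCC366 (1.2% of all genes), 5 of 20 in NCI-H1650 (6.18% of all genes) and 9 of 20 in NCI-H196 (10.3% of all genes), where *TRAF5* fell (−0.43, SE 0.15). With IFN-β and *ADAR* KO 9 of 20 rose over IFN-β with GFP (10.8% of all genes), and with vehicle 0 of 20 passed by edgeR, none with an unadjusted p under 0.05. *TRAF1*, an adaptor that binds TNF receptors, rose with *ADAR* KO in HCC366 (from 79.9 ± 18.5 to 528 ± 250 CPM), NCI-H1650 (from 17.9 ± 2.39 to 52.5 ± 4.33 CPM) and NCI-H196 (from 17.1 ± 3.43 to 65.6 ± 11.0 CPM).

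*TNFAIP3*, which encodes the NF-κB inhibitor A20, rose in the same 3 lines, with log2 fold changes of 1.99 (SE 0.33), 1.73 (SE 0.12) and 1.75 (SE 0.11). In IFN-β-treated A549 cells *TRAF1* was 261 ± 76.8 CPM with ADAR and 30.6 ± 0.14 CPM with GFP sgRNAs, and *TNFAIP3* 186 ± 49.0 against 22.1 ± 0.40 CPM. *BIRC3*, which encodes the apoptosis inhibitor cIAP2, rose with *ADAR* KO in NCI-H1650 (0.90, SE 0.14), NCI-H196 (1.08, SE 0.16) and IFN-β-treated A549 (1.70, SE 0.13). The interaction was positive for 8 of 20 (4.07% of all genes), with *TRAF1* at 2.91 (SE 0.26) and *TNFAIP3* at 2.77 (SE 0.24).

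IFN-β raised 11 of the 20 in A549 with GFP sgRNAs, where 4.39% of all genes rose, and 15 of 20 with ADAR sgRNAs, where 15.5% rose, and none fell. *CASP8*, the initiator caspase of death receptors, rose by 0.85 (SE 0.12) and 1.00 (SE 0.12) on the log2 scale. *CFLAR*, which encodes the caspase 8 inhibitor FLIP, rose by 0.65 (SE 0.11) and 1.07 (SE 0.11).

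**Figure D5:**
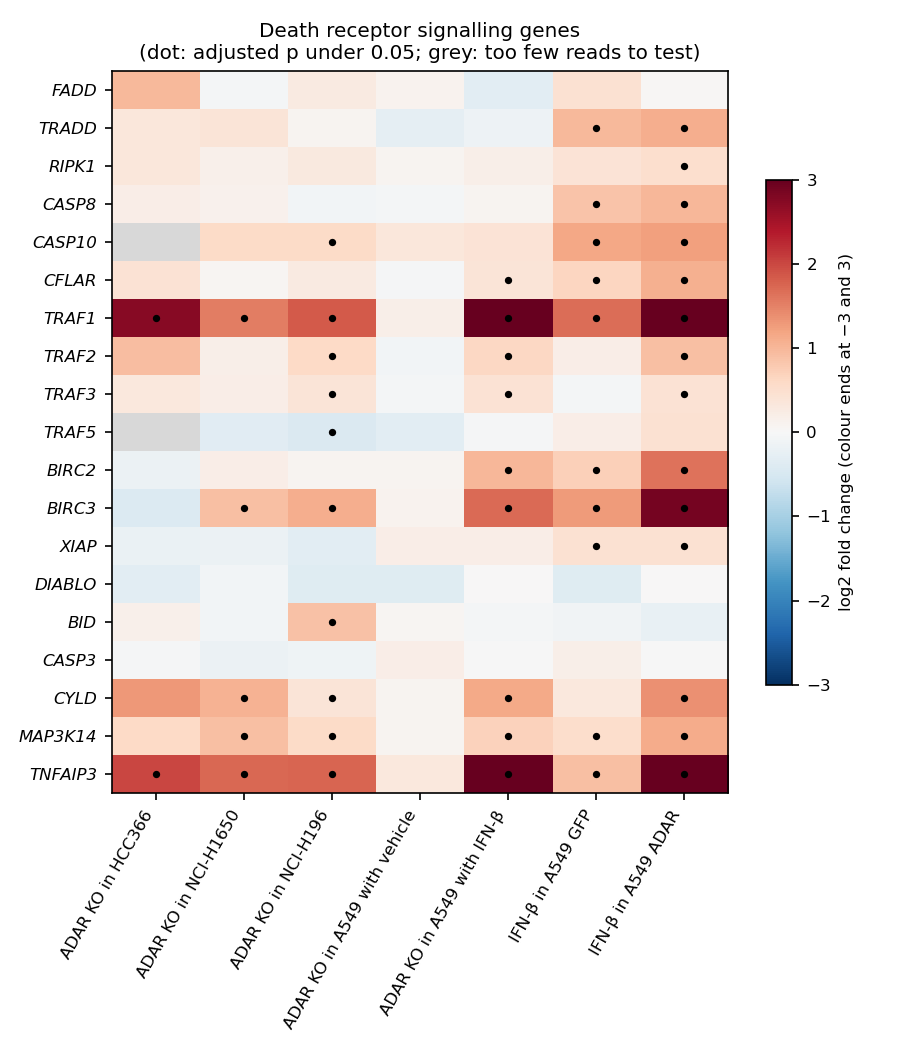
Log2 fold changes of 19 of the 20 death receptor signalling genes in 7 comparisons. Red is higher and blue lower in ADAR libraries or after IFN-β, dots passed the threshold, and grey had too few reads. *TRAF1* and *TNFAIP3* carry dots in each column except *ADAR* KO in A549 with vehicle.

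Likeness of expression was described over the 19 libraries with at least 500000 reads, as Pearson's r of log2 CPM after subtracting each line's mean, among 10240 genes. Libraries of a line share its mean and the effects of KO and IFN-β, so r carries no p value. *TNFRSF9* was most like *SYNE1* (r = 0.97) and *TNFRSF10B* (r = 0.96). *TNFRSF10B* was close to *PLA2G4C* (r = 0.98), and *TNFRSF12A* was most like *NFKBIB* and *PPRC1* (both r = 0.98). *TNFRSF10A* was closest to *MYO10* (r = 0.89) and *H3-3B* (r = 0.88), and *FAS* to *MFSD8* and *TAB3* (both r = 0.94). Between members, r was 0.92 for *TNFRSF10B* and *TNFRSF12A*, 0.85 for *TNFRSF9* and *TNFRSF12A*, and between −0.62 and −0.36 for *FAS* and each of the other 4 receptors. The 19 libraries include HCC366 ADAR sg2, in which 85.6% of alignments were not unique. There *FAS* was 5.82 CPM and *TNFRSF12A* 280 CPM, against 18.4 and 109 CPM in HCC366 ADAR sg1. The part of this library in the r values was not tested.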

How the data were processed

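RNA of 4 lung cancer lines was depleted of ribosomal RNA, made into directional paired-end libraries, aligned to hg19 with STAR and counted per gene with HTSeq by the authors. The deposited files hold raw counts per Ensembl identifier, without normalization, and their summary lines were left out. The annotation release and the strand setting are not given in the sources used here. Symbols were matched to 55727 of 58233 identifiers, and 2506 had none. The 9 members, the gene lists and the tests were chosen with earlier results of these data known.

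Tests used edgeR 4.0.16 (R 4.3.3). Libraries were scaled by TMM, genes were filtered with filterByExpr by condition, and groups were compared by the quasi-likelihood test with Benjamini-Hochberg adjustment over all genes tested, at a threshold of 0.05. HCC366, NCI-H1650 and NCI-H196 were fitted separately (4 libraries each), A549 in a model of its 8 libraries, basal levels in a model of the 8 GFP libraries without IFN-β, and the difference between lines in a model of all 20 libraries. Log2 fold changes used a prior count of 0.125. Their standard errors (SE) were back-calculated, as the absolute log2 fold change divided by the square root of the quasi-likelihood F. Ratios of few reads carry exact 95% intervals that cover counting error only, and a floor of 3 reads was used for a group with no read. RPKM used the length of the canonical transcript of a GENCODE annotation on GRCh37 (for *FAS*, which has no transcript with that mark there, a coding transcript of 2563 bases). The tests of *ADAR* KO in the 3 lines and in A549 with IFN-β, and of the interaction, were checked on simulated data for recovery of known fold changes. The other comparisons were not. Simulated counts had the same spread for all genes and no effect of sgRNA, GC content or alignment, so the check does not cover these. Alternatives were DESeq2 1.42.0, its size factors in edgeR, no filter on low counts, sgRNA number as a block, all 20 libraries in 1 fit and each library left out, and, chosen after seeing the data, a crossed block and offsets for GC content and length in HCC366.

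All 9 members were named in every comparison. From each of 3 lists (other ligands, other receptors, signalling), at most the 4 genes of largest change past the threshold were named by rule, with *FASLG*, *TNFSF12*, *TNFRSF1A*, *LTBR* and *TNFRSF10D* as binding partners. *CASP8*, *CFLAR* and *TRAF5* were named after their values were seen. For each member tested in all line fits, the 2 genes most like it were given. Some items that these rules name are not reported here.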

Additional observations from a re-analysis of the deposited data

Results flagged for a closer look

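In 4 cases the effect of *ADAR* KO on a member differed between settings by a test of the difference itself. In A549 cells it was larger with IFN-β than with vehicle for *TNFRSF9* (log2 difference 1.38, adjusted p = 0.00109 from edgeR) and *TNFRSF10B* (0.83, adjusted p = 0.000714). The mean effect in the 3 ADAR1-dependent lines was larger than in A549 with vehicle for *TNFRSF9* (1.42, adjusted p = 0.0493) and *TNFRSF10B* (0.95, adjusted p = 0.0389). The first *TNFRSF10B* difference did not pass in the fit of all 20 libraries (adjusted p = 0.252), and of 20 alternatives the second pair lost the call in 14 for *TNFRSF9* and 13 for *TNFRSF10B*. The second pair of differences compares different cell lines, which also differ in basal level, depth and treatment with vehicle. The 3 lines were harvested on day 5 after infection, while the sources used here give no exact day for A549. The part of these factors was not tested.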

How the results depend on the processing

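Over the alternatives, the number of members past the threshold changed in every comparison except *ADAR* KO in A549 with vehicle, where it stayed at 0. For *ADAR* KO in HCC366 it was 3, and it became 5 with DESeq2, 5 with no filter on low counts, 7 with all 20 libraries in 1 fit and 0 to 8 with each library left out. Chosen after seeing the data, a crossed block in HCC366 gave 5 and offsets for GC content and length gave 5. For NCI-H1650 it was 3, with 0 in the fit of all 20 libraries and 0 to 2 with a library left out. For NCI-H196 it was 5, with 0 by DESeq2, 0 with sgRNA number as a replicate block, 0 in the fit of all 20 libraries and 0 to 5 with a library left out, among all genes 2513 calls becoming 10 by DESeq2 and 115 with the block. In HCC366 the all-gene count was 139, 362 by DESeq2 and 300 with the block, and in NCI-H1650 1250, 413 and 1096. With IFN-β the fit of all 20 libraries gave 1 in place of 2 with GFP sgRNAs, 3 in place of 5 with ADAR sgRNAs and 1 in place of 2 for the interaction, and leaving out a library gave 1 to 2 with GFP sgRNAs. For *ADAR* KO with IFN-β the fit of all 20 libraries gave 2 in place of 3, and for basal levels DESeq2 gave 6 in place of 8. For the dependent lines minus A549 it was 2, with 1 by DESeq2 size factors, 1 by DESeq2, 0 with no filter and 0 to 3 with a library left out. The cause of these shifts was not tested. sgRNA numbers did not pair the samples (correlations of same-numbered deviations −0.25 to −0.0048), and the block changed no other count by over 1.5 times apart from HCC366 and NCI-H196. Of 858 results under an alternative, 724 stayed on the same side, 23 newly passed, 80 no longer passed and 31 changed sign, none of the last a call.

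The sign of small log2 differences changed as follows. *TNFSF10* in NCI-H1650 was −0.0025 with DESeq2 size factors and −0.0077 by DESeq2, and in NCI-H196 it was 0.098 with the replicate block. With a library left out it lay between −0.30 and 0.36 in NCI-H1650 and −2.35 and 0.42 in NCI-H196, and *TNFRSF10A* between −0.16 and 0.17 and −0.20 and 0.40. In A549 with vehicle *TNFRSF12A* lay between −0.052 and 0.10 and *FAS* between −0.34 and 0.30, and with IFN-β *TNFSF9* between −0.0087 and 0.24. For IFN-β with GFP sgRNAs *TNFRSF9* lay between −0.16 and 0.016 and *FAS* between −0.092 and 0.54, and for the interaction *TNFRSF10A* between −0.16 and 0.051 and *FAS* between −0.0061 and 0.64. For the dependent lines minus A549, *LTB* lay between −0.47 and 4.53, *TNFSF10* between −0.73 and 1.07, *TNFRSF10A* between −0.041 and 0.38 and *FAS* between −0.60 and 3.22, the highest *FAS* value coming from NCI-H196 GFP sg2 as the lone control, in which *FAS* had no read.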
